A study of Mus musculus with 16 samples.

Results

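A set of 35 genes for noncollagenous matrix proteins of the heart (elastic fibre proteins and fibronectin, proteoglycans, laminins and other basement membrane proteins, and further secreted glycoproteins) was followed in banded and sham-operated mouse ventricles. The set was a list of gene symbols without collagens, chosen with earlier results of these data known. All 35 were found among the 23946 genes of the deposited table. All 35 were at 1 FPKM (mapped fragments scaled to transcript length and library size) or more in at least 4 of the 16 libraries, as were 12100 genes in all, and no member was lost to that filter.

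The libraries were made from polyA RNA of ventricular free walls of adult male FVB mice, an inbred strain, aged 10 to 13 weeks. A band around the pulmonary artery makes the right ventricle eject against a higher pressure and was used to induce failure of that chamber, and controls had a sham operation. There were 4 groups of 4 libraries: banded right ventricle, sham right ventricle, banded left ventricle and sham left ventricle. The band does not load the left ventricle directly, so that chamber gives the difference measured the same way away from the load. The labels name the operated group PS, and PS was read as banded because the protocol names banding and sham alone. No time after surgery is given in the labels used here, and the free walls were taken whole, so every value is a mixture over the cell types of the wall.

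The extracellular matrix of the ventricle is a network of collagen, elastic fibres, proteoglycans and glycoproteins between cells, with a basement membrane around each myocyte and beneath each endothelium. Microfibrils of fibrillin carry elastin and bind latent growth factors. Small leucine-rich proteoglycans sit on collagen fibrils, and laminin trimers of an alpha, a beta and a gamma chain tie the basement membrane to dystroglycan and integrins on the cell. In the heart, fibroblasts make much of the interstitial matrix, and a rise of many matrix transcripts under pressure load is known as fibrotic remodelling.

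The promoter windows of RefSeq on GRCm38.p6, each running from 250 bases before to 50 bases after a gene's start, were matched by symbol for 23 of the 35 members, in 29 windows. The windows of 4 genes are printed: those of Bgn, the proteoglycan with the largest difference in the loaded ventricle, of Lamb1 and Lamb2, which encode alternative beta chains of laminin, the first higher after banding and the second not, and of Efemp1, which was lower after banding. Capitals mark matches, on either strand, to GGGCGG (named here after the factor Sp1) or to CAGACA (named after the SMAD proteins), the motifs searched that these windows held. The windows are chrX:73483351-73483650 (Bgn), chr12:31265043-31265342 (Lamb1), chr9:108479612-108479911 (Lamb2) and chr11:28852955-28853254 (Efemp1), all on the plus strand.
Bgn: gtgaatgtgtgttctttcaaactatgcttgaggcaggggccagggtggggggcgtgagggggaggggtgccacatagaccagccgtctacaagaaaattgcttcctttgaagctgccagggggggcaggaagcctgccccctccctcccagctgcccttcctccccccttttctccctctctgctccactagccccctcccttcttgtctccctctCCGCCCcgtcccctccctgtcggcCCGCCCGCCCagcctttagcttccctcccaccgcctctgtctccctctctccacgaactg
Lamb1: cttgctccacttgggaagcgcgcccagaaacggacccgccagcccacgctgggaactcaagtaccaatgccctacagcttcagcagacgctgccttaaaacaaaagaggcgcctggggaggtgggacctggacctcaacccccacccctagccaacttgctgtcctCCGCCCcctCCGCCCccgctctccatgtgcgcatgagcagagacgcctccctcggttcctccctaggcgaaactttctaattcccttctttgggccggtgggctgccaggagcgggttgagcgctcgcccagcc
Lamb2: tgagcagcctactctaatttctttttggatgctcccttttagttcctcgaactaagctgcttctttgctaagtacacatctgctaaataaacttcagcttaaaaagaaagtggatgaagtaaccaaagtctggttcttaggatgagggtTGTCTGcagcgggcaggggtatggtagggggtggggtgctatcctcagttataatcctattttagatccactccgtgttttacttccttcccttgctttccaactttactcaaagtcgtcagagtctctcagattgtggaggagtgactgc
Efemp1: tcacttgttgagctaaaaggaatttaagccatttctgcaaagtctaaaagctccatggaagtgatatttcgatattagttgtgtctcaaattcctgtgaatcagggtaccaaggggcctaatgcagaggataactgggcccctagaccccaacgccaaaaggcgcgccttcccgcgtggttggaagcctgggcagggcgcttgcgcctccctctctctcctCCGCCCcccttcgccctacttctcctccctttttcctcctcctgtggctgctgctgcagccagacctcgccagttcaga

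Bgn held 3 matches to GGGCGG, Lamb1 held 2 and Efemp1 held 1, whereas Lamb2 held none and had a single match to CAGACA. The GC content was 63.7% in the windows of Bgn and of Lamb1, 54.3% in that of Efemp1 and 44.0% in that of Lamb2. Over the matched members, 20 of 29 windows (69.0%) held GGGCGG, against 35.7% of all 32851 windows. The members' windows were also richer in GC, with a median of 60.3% against 52.7% over all windows. For CAGACA the share was 27.6% against 21.0%, for TATAAA (the TATA box) 6.9% against 13.6%, for TGACTCA (AP-1) 6.9% against 5.2%, and for CATTCC (TEAD) 6.9% against 14.7%. These are matches of letters in windows of equal length and say nothing of binding.

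The libraries did not share a common scale as deposited. The ribosomal precursor Rn45s was at 0 in 5 of them, all banded (2 of the right and 3 of the left ventricle), which had scale factors of 1.22 to 1.28 against 0.840 to 1.02 in the others. A gene is therefore written as having risen or fallen only where the limma test passed an adjusted p of 0.05 in the same direction both on the deposited values and after each library was divided by its scale factor. The fragments behind each library were estimated from the steps of the lowest values, with an assumed fragment length of 200 nt, at 2.36e+06 to 5.73e+06 in banded right, 3.38e+05 to 1.41e+06 in sham right, 3.54e+06 to 8.91e+06 in banded left and 2.02e+06 to 4.45e+06 in sham left ventricles. The sham right libraries were thus the shallowest group. All 7 cardiomyocyte markers were present, summing to 16902 to 24121 FPKM in banded and 26397 to 29213 FPKM in sham right ventricles. In left ventricles they summed to 36249 to 44555 FPKM in banded and 17744 to 28017 FPKM in sham libraries. The 7 did not move together in the banded right ventricle, where 2 fell, none rose and 3 had positive differences. Myl2 had 4560 to 7048 FPKM in banded and 8969 to 11038 FPKM in sham right ventricles. Actc1 had 5003 to 7519 FPKM in banded and 4448 to 6145 FPKM in sham right ventricles. On the left all 7 differences were positive and 2 markers rose. Transcripts of 6 pancreatic islet genes summed to 63.6 to 154 FPKM in banded right and 635 to 2134 FPKM in sham right ventricles. Of the 6, Ttr was at 0 in every sham right library and Ins2 at 509 to 1475 FPKM there. The 6 summed to 25.1 to 58.8 FPKM in banded and 86.6 to 2086 FPKM in sham left ventricles. Whether any of these differences has a part in the results below was not tested.

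In the banded right ventricle 12 of the 35 genes rose (34.3%) and 2 fell (5.71%), whereas among all 12100 genes tested 10.5% rose and 4.93% fell. Because the members were chosen with earlier results of these data known, these shares describe the set and do not test it. The genes that rose were the microfibril and elastic fibre genes Mfap5, Fbn1, Fbln1 and Fbln2, fibronectin (Fn1), the proteoglycans Bgn and Vcan, the laminin chains Lamb1 and Lamc1, and the glycoproteins Mgp, Sparcl1 and Smoc2. Efemp1 and Tnxb fell. The median log2 difference (banded minus sham, of FPKM + 1) over the 35 genes was 0.62 as deposited and 0.47 rescaled, beside 0.26 and 0.11 over all genes tested, and 30 of 35 genes were above 0 (85.7%), as were 69.7% of all genes. In 18 genes all 4 banded libraries lay above all 4 sham libraries, and in 2 they lay below, where 12.6% and 5.07% of all genes did. In the libraries with Rn45s above 0, 2 banded and 4 sham, 10 members were called higher, 9 of them among the 12, and none lower, with a median of 0.65, where 1.53% of all 11416 genes tested in that fit were higher and 2.18% lower. The libraries with Rn45s at 0 are all banded and give no comparison of their own. Among members without a call the sign depended on the scaling for Efemp2, Hspg2, Lama2, Lama5 and Lamb2.

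In the left ventricle of the same banded group 6 of the 35 genes rose (17.1%) and none fell, against 2.44% and 0.298% of all genes. The choice of members limits this comparison in the same way. At an unadjusted limma p under 0.05, 22 members were higher there and none lower, a level passed in either direction by 30.1% of all genes. The 6 were Mgp, Bgn, Mfap5, Fbln1, Ecm1 and Sparcl1, and 5 of them (all but Ecm1) had also risen in the right ventricle. Differences above 0 were about as frequent as over all genes, at 82.9% of the 35 genes and 81.7% of all genes, and 13 members against 22.2% of all genes had banded libraries above every sham library (none against 0.942% below). The median over the 35 genes was 0.54 as deposited and 0.17 rescaled, beside 0.33 and 0.01 over all genes. This left-sided count rested on single libraries: it was 1 without banded library PS_9553 or without sham library 2, and 2 without banded library PS_9561, sham library 1 or sham library 3. The same 5 omissions left 0.282 to 0.723% of all genes higher. Banded left library PS_9553 stood apart in some of the 5 atrial markers. It had Myl7 at 122 FPKM (others 0 to 0.935), Myl4 at 103 FPKM (others 2.13 to 2.897) and Sln at 33.4 FPKM (others 0.581 to 1.06). Nr2f2, at 4.28 FPKM (others 3.56 to 5.71), and Stard10, at 12.5 FPKM (others 9.04 to 12.4), did not stand apart there. The 5 atrial markers summed to 18.8 to 275 FPKM in banded and 38.1 to 360 FPKM in sham left ventricles, and to 18.9 to 261 FPKM in banded and 25.6 to 270.3 FPKM in sham right ventricles, with no marker at 0 throughout a group. Their part in these differences was not tested. Among libraries with Rn45s above 0 a single banded left library remained, and there 0 of 11416 genes were called, so that fit gives no information on the 6 (median over the members 0.22).

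**Figure D1:**
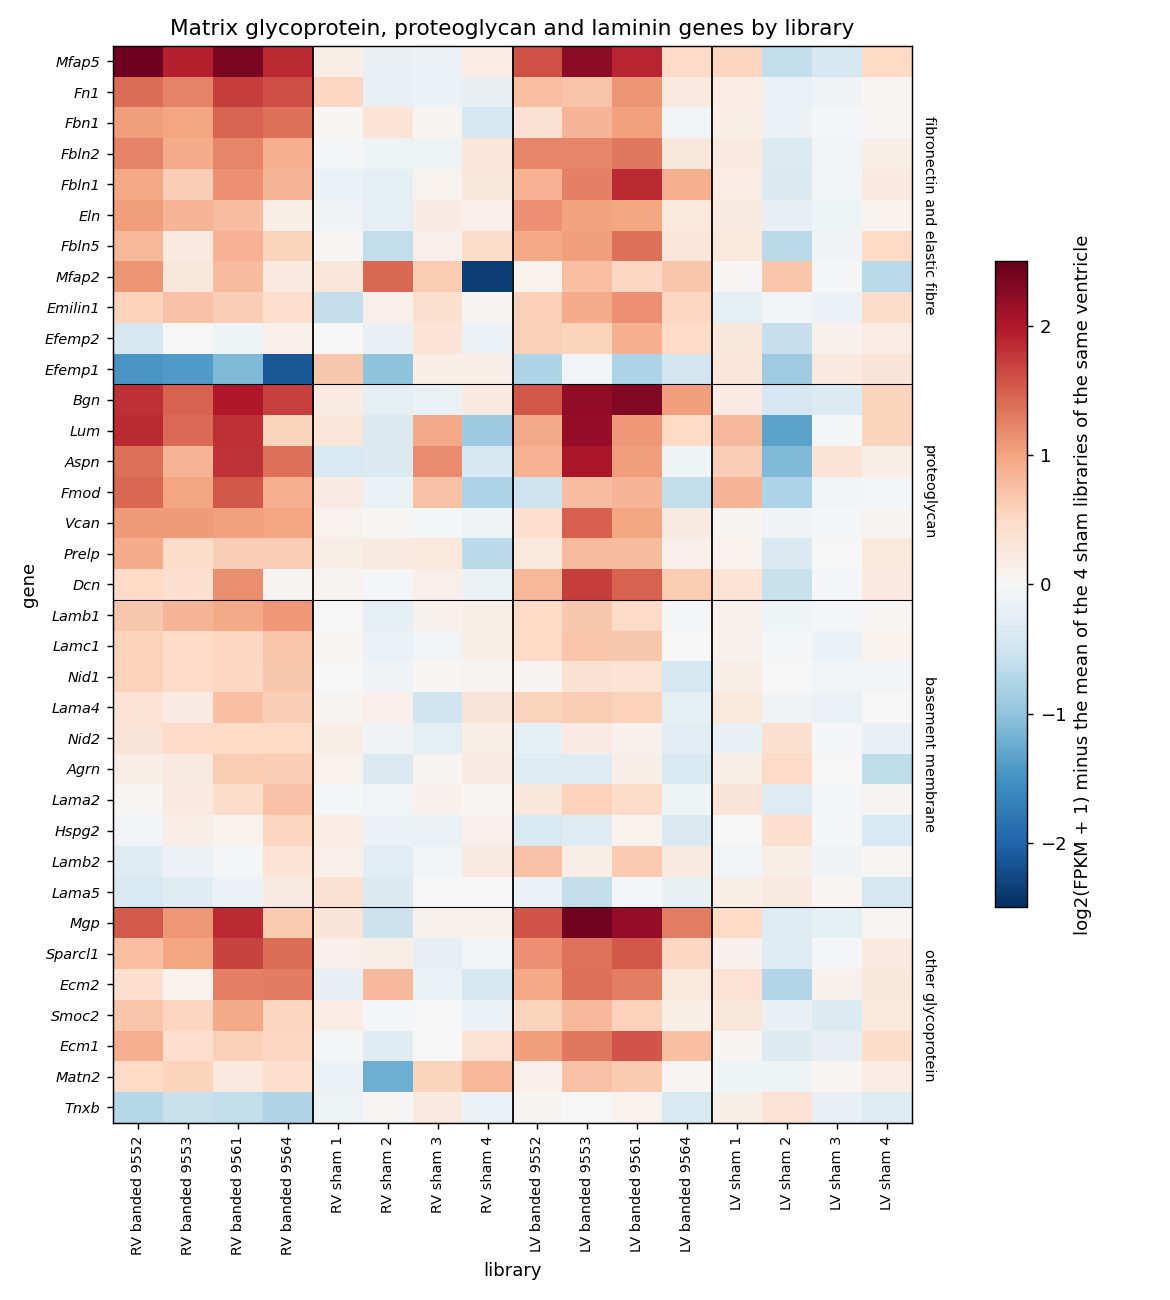
Colour shows, for each of the 35 genes (rows, grouped by role) and each of the 16 libraries (columns), log2(FPKM + 1) minus the mean of the 4 sham libraries of the same ventricle. Mfap5 and Bgn are the rows most uniformly high in the banded right ventricle, Efemp1 and Tnxb are low there, and left banded library PS_9564 is paler than the other left banded libraries in most rows.

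Fibronectin and the elastic fibre account for 11 of the 35 genes, of which 5 rose with banding of the right ventricle and 1 fell. Mfap5, which encodes a microfibril-associated glycoprotein that binds fibrillin, showed the largest difference of the 35. Its values were 58.6, 41.6, 55.9 and 39.3 FPKM in banded libraries PS_9552, PS_9553, PS_9561 and PS_9564 of the right ventricle (the order used throughout), against 11.3, 8.71, 8.96 and 11.7 FPKM in sham libraries 1 to 4. All banded libraries were above all sham libraries. The log2 difference was 2.15 ± 0.33 (SE), with an adjusted p of 0.000608 (limma, Benjamini-Hochberg over all genes tested), and the ratio of the group means was 4.80. Mfap5 in left ventricles had 31.7, 49.8, 39.5 and 14.0 FPKM in banded libraries against 14.7, 6.01, 7.12 and 14.2 FPKM in sham libraries. There the groups overlapped, since banded library PS_9564 was at the level of sham libraries 1 and 4, and the log2 difference was 1.55 (adjusted p = 0.00582).

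Fn1 encodes fibronectin, the adhesive glycoprotein that integrins bind and on which other matrix proteins assemble. Its values were 18.9, 16.9, 24.1 and 22.4 FPKM in banded right ventricles against 9.93, 5.69, 5.91 and 5.64 FPKM in sham right ventricles. The groups did not overlap, although sham library 1 stood above the other 3 (log2 difference 1.49, adjusted p = 0.00041). Left ventricular Fn1 had 14.9, 14.5, 19.1 and 10.1 FPKM in banded and 9.74, 7.42, 7.85 and 8.79 FPKM in sham libraries, groups that just failed to overlap. It passed there as deposited (log2 difference 0.70, adjusted p = 0.0334) but not rescaled (0.33, adjusted p = 0.283).

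Fbn1 encodes fibrillin-1, the main structural protein of microfibrils. It had 15.8, 15.2, 21.4 and 20.04 FPKM in banded right against 7.30, 9.37, 7.51 and 4.97 FPKM in sham right ventricles. No sham library reached the banded ones (log2 difference 1.22, adjusted p = 0.00254). In left ventricles the values were 14.5, 20.4, 23.1 and 10.3 FPKM in banded and 12.3, 9.80, 10.5 and 11.2 FPKM in sham libraries, which overlapped, and the difference of 0.54 did not pass. On the annotation of GRCm38, 20.3% of the exonic bases of Fbn1 are shared with Gm9913 on the opposite strand, as are 9.68% of Prelp with Gm15851 and 8.96% of Nid2 with Rtraf, and it is not stated whether the counting used strand.

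The fibulins Fbln1 and Fbln2 are calcium-binding glycoproteins of elastic fibres and basement membranes. Fbln2 had 66.8, 54.0, 66.0 and 52.9 FPKM in banded right against 27.0, 25.3, 25.5 and 34.4 FPKM in sham right ventricles (log2 difference 1.07, adjusted p = 0.00344). Its left ventricular values were 60.1, 60.2, 64.5 and 31.0 FPKM in banded and 30.5, 19.8, 24.1 and 28.6 FPKM in sham libraries. In both ventricles the groups were separate, in the left one by a narrow gap at banded library PS_9564, and the left difference passed as deposited (1.004, adjusted p = 0.00582) and not rescaled (0.61, adjusted p = 0.0634). Fbln1 had 47.7, 37.2, 54.2 and 43.8 FPKM in banded right against 21.6, 20.3, 25.4 and 29.4 FPKM in sham right ventricles (log2 difference 0.89, adjusted p = 0.0109). Its left ventricular values were 33.4, 44.4, 67.4 and 34.1 FPKM in banded and 20.6, 13.6, 16.9 and 21.4 FPKM in sham libraries (log2 difference 1.22, adjusted p = 0.0026). Fbln1 rose in both ventricles without overlap.

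Efemp1 (fibulin-3), a related extracellular glycoprotein, ran the other way. It was listed at 0.607, 0.655, 1.05 and 0 FPKM in banded right ventricles against 5.99, 1.20, 3.97 and 3.93 FPKM in sham right ventricles. All banded values lay below all sham values, with sham library 2 close to the highest banded library, and the log2 difference was -1.53 ± 0.36 (SE, adjusted p = 0.00886). These levels rest on few fragments, an estimated 0 to 10.5 in banded and 0.743 to 15.5 in sham libraries. Left ventricular Efemp1 had 1.98, 3.90, 1.99 and 2.71 FPKM in banded and 5.35, 1.78, 5.06 and 5.41 FPKM in sham libraries, which overlapped through sham library 2 (log2 difference -0.52, adjusted p = 0.343). Beside it, 5 mesothelial markers summed to 6.07 to 9.57 FPKM in banded and 8.04 to 26.8 FPKM in sham right ventricles. Of the 4 that were tested, 2 fell in the banded right ventricle and 2 had positive differences. In left ventricles the 5 summed to 6.57 to 11.96 FPKM in banded and 2.48 to 9.39 FPKM in sham libraries. No marker was at 0 throughout a group, and the part of these markers in the Efemp1 difference was not tested. In the libraries with Rn45s above 0 (2 banded, 4 sham) the right difference of Efemp1 was -1.43 and no longer passed (limma adjusted p = 0.123).

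Efemp2 (fibulin-4), needed to assemble elastic fibres, differed little in the right ventricle, with 8.39, 11.4, 10.5 and 12.7 FPKM in banded and 11.4, 9.96, 14.9 and 10.3 FPKM in sham libraries. The groups overlapped throughout (log2 difference -0.10, 95% interval -0.54 to 0.33). Efemp2 in left ventricles had 12.7, 12.4, 15.8 and 11.6 FPKM in banded and 10.0, 5.07, 8.77 and 9.36 FPKM in sham libraries, which did not overlap, and the difference of 0.63 passed as deposited (adjusted p = 0.0488) and not rescaled (adjusted p = 0.476). The remaining 4 genes of this group, elastin itself (Eln), the elastic fibre interface protein Emilin1, Fbln5 and the microfibril protein Mfap2, had right ventricular log2 differences of 0.59 to 0.70 and left ventricular ones of 0.51 to 0.92. None was called in either. The right ventricular difference of Mfap2 rested on sham library 4, at 0 FPKM. Sham libraries 1 to 3 had 5.40 to 12.9 FPKM, against 5.08 to 10.07 FPKM in banded right libraries. Mfap2 averaged 7.097 ± 2.36 FPKM in banded and 6.32 ± 5.297 FPKM in sham right ventricles (SD, n = 4 each). Its sham right values came from an estimated 0 to 6.65 fragments. Eln averaged 40.5 ± 9.90 FPKM in banded and 24.1 ± 3.52 FPKM in sham right ventricles (SD, n = 4 each), and banded library PS_9564, at 26.7 FPKM, fell within the sham range.

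**Figure D2:**
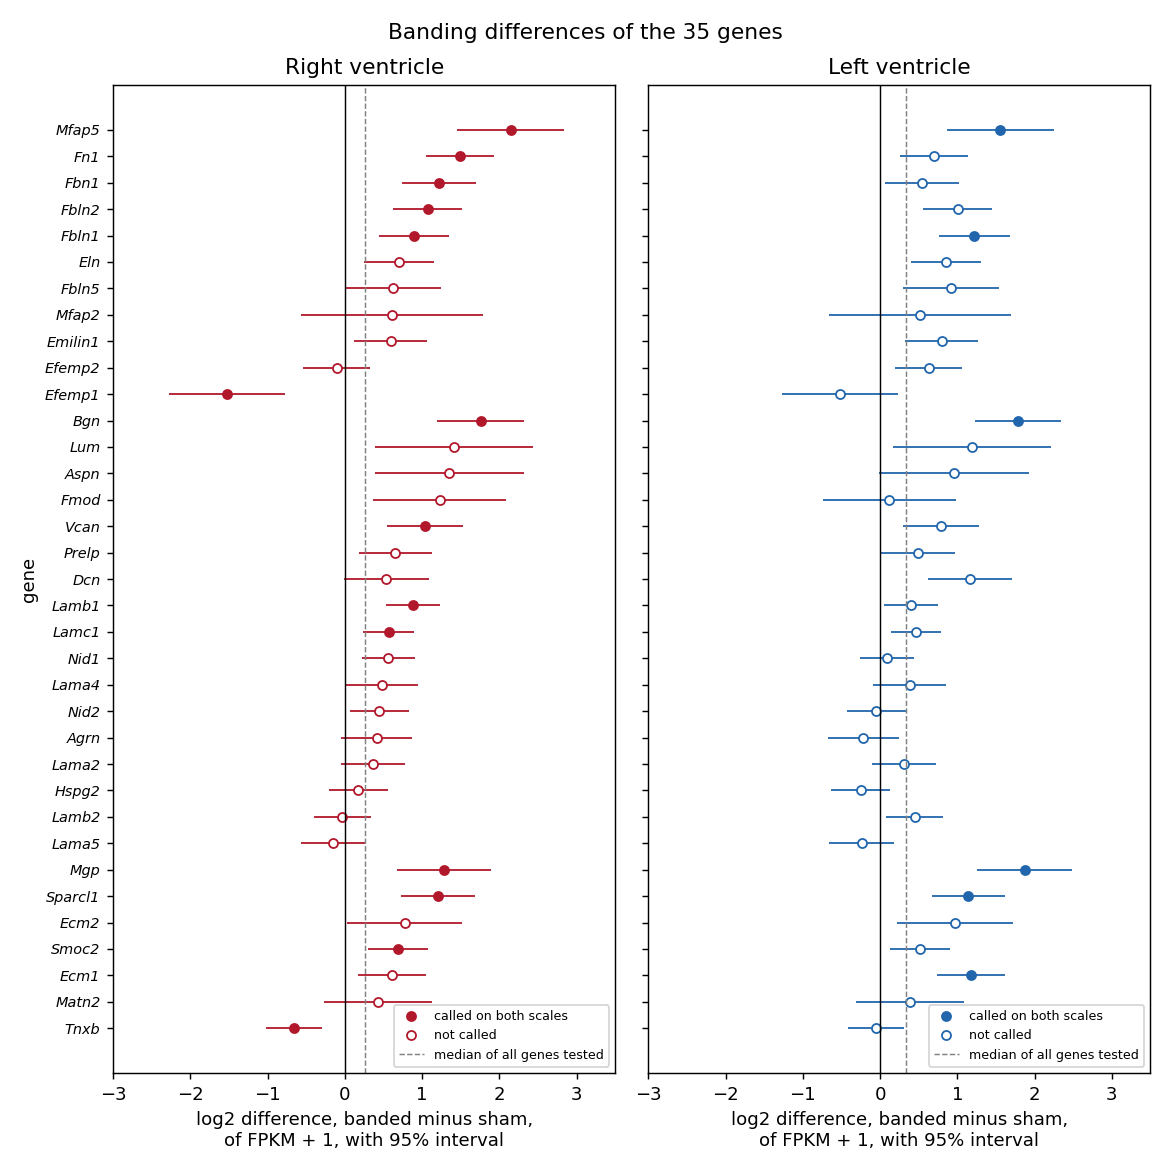
Points are log2 differences, banded minus sham, of FPKM + 1 with 95% intervals from the limma fit, for the right ventricle (left panel) and the left ventricle (right panel), and filled points were called on both scales. In the right ventricle 12 filled points lie to the right of 0 and those of Efemp1 and Tnxb to the left. In the left ventricle 6 are filled, all to the right, and the dashed line is the median of all genes tested (0.26 and 0.33).

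Of the 7 proteoglycans, Bgn and Vcan rose in the banded right ventricle, and as deposited all 7 had positive differences in both ventricles, with a right median of 1.22 and a left median of 0.96 (Fmod and Aspn changed sign under other scalings in the left). Bgn encodes biglycan, a small leucine-rich proteoglycan that binds collagen and growth factors. It had 200.3, 156, 225 and 184 FPKM in banded right against 64.1, 46.5, 49.1 and 64.5 FPKM in sham right ventricles. Every banded library had more than any sham library (log2 difference 1.76 ± 0.27, adjusted p = 0.000585). In left ventricles Bgn had 189, 302, 322 and 132 FPKM in banded and 73.2, 47.6, 49.8 and 94.4 FPKM in sham libraries, again without overlap (log2 difference 1.79 ± 0.27, adjusted p = 0.00116). The left and right differences were therefore alike in size, and the difference between them was -0.03 with a 95% interval of -0.82 to 0.76. Of the 35 genes, Bgn was the least dependent on single libraries in the left ventricle, being called in every fit that left out 1 library.

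Vcan encodes versican, a large hyaluronan-binding proteoglycan of provisional matrix. It had 3.87, 3.86, 3.71 and 3.58 FPKM in banded right against 1.48, 1.37, 1.27 and 1.18 FPKM in sham right ventricles. Both groups were tight and far apart (log2 difference 1.03, adjusted p = 0.0075), on an estimated 112 to 271 fragments in banded and 5.66 to 25.4 in sham libraries. The call was lost in 1 of 28 alternative fits, that with the length and GC correction (limma adjusted p = 0.0767). Left ventricular Vcan had 3.26, 7.95, 5.29 and 2.72 FPKM in banded and 2.33, 1.98, 2.08 and 2.31 FPKM in sham libraries. These did not overlap, but the difference of 0.79 passed as deposited alone (adjusted p = 0.0324, rescaled 0.225).

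Lum, Aspn and Fmod, further small leucine-rich proteoglycans, were among the largest differences of the right ventricle and did not pass on both scales. Lum (lumican, a regulator of collagen fibril assembly) had 17.4, 12.3, 16.7 and 6.41 FPKM in banded and 5.20, 2.92, 8.71 and 1.69 FPKM in sham right ventricles. Banded library PS_9564 lay within the sham range (log2 difference 1.41, adjusted p = 0.0524). Left ventricular Lum had 13.5, 33.6, 14.9 and 9.59 FPKM in banded and 12.1, 1.97, 6.31 and 10.0 FPKM in sham libraries, which overlapped. Aspn (asporin) had 5.81, 3.69, 8.15 and 5.76 FPKM in banded and 1.01, 1.03, 4.92 and 0.931 FPKM in sham right ventricles, where sham library 3 stood apart and reached into the banded range (log2 difference 1.35, adjusted p = 0.0514). Without that library Lum, Aspn and Fmod were all called. It held the highest sham right value of each of them, so leaving it out could only widen their differences. Lum and Aspn were each called in 3 of 29 alternative fits, and Fmod in 3 of 28. Left ventricular Aspn had 5.35, 13.2, 6.11 and 2.22 FPKM in banded and 4.32, 0.612, 3.38 and 2.85 FPKM in sham libraries, also overlapping.

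Fmod (fibromodulin, which binds collagen fibrils) had 4.98, 3.38, 5.48 and 3.17 FPKM in banded and 1.55, 0.958, 2.66 and 0.298 FPKM in sham right ventricles. Its groups did not overlap, and it passed as deposited (log2 difference 1.22, adjusted p = 0.0464) and not rescaled (adjusted p = 0.0682). In left ventricles it was at most 2.08 FPKM, with 0.187, 1.92, 2.06 and 0.104 FPKM in banded and 2.08, 0, 0.623 and 0.675 FPKM in sham libraries, and the groups overlapped. Dcn (decorin), another member of the family, averaged 193 ± 65.4 FPKM in banded and 128 ± 11.53 FPKM in sham right ventricles (SD, n = 4 each), and Prelp averaged 23.1 ± 3.40 FPKM in banded and 14.7 ± 4.06 FPKM in sham right ventricles (SD, n = 4 each). Their log2 differences of 0.53 and 0.65 did not pass. Dcn in the left ventricle averaged 330.2 ± 117 FPKM in banded and 144 ± 36.7 FPKM in sham libraries, and the log2 difference of 1.16 passed as deposited (adjusted p = 0.00789) but not rescaled (0.76, adjusted p = 0.0933). On the annotation of GRCm38, Dcn and Lum are direct neighbours on chromosome 10, Fmod and Prelp on chromosome 1, and Aspn and Ecm2 on chromosome 13.

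Biglycan and decorin are close relatives, and the share of Bgn in their summed FPKM, chosen after the values were seen and therefore given without a test, does not depend on the scale of a library. Bgn made up 44.0 to 57.9% of the pair in banded right and 26.0 to 36.2% in sham right ventricles, and 37.8 to 45.3% in banded left and 26.8 to 36.2% in sham left ventricles. The banded and sham shares did not overlap in either ventricle.

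**Figure D3:**
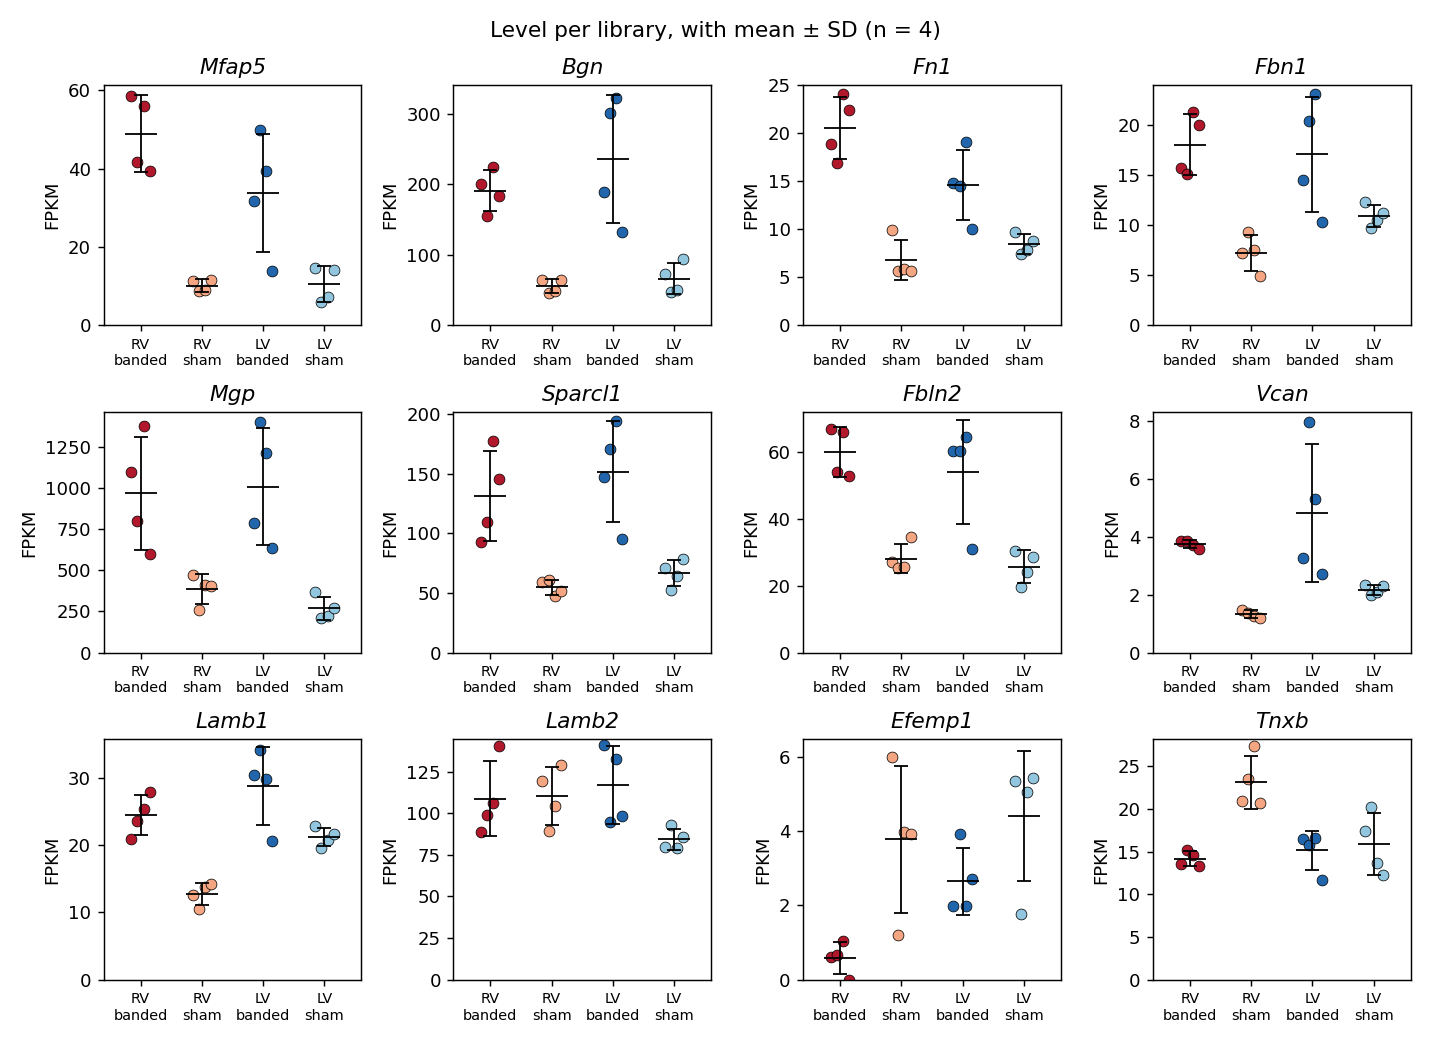
Each panel gives FPKM of a gene in the 4 libraries of each group (points), with the mean and SD (lines), from left to right banded right, sham right, banded left and sham left ventricles, each on a linear axis starting at 0. Mfap5 and Bgn are high in all 4 banded right libraries (39.3 to 58.6 FPKM and 156 to 225 FPKM), Lamb2 overlaps between all groups of the right ventricle, and Efemp1 and Tnxb are lower in banded than in sham right ventricles.

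The 10 basement membrane genes moved least. Lamb1 and Lamc1, laminin beta-1 and gamma-1 chains, rose in the banded right ventricle, none fell, and none was called in the left. As deposited, their median difference was 0.43 for the right chamber and 0.20 for the left, beside 0.26 and 0.33 over all genes. Rescaled, it was 0.25 and -0.19, beside 0.11 and 0.01 over all genes. Lamb1, singled out here after its values were seen, had 20.8, 23.5, 25.3 and 27.9 FPKM in banded right against 12.5, 10.5, 13.8 and 14.2 FPKM in sham right ventricles. The groups were clearly separate (log2 difference 0.89 ± 0.17, adjusted p = 0.00243). In left ventricles Lamb1 had 30.4, 34.1, 29.8 and 20.5 FPKM in banded and 22.8, 19.6, 20.7 and 21.6 FPKM in sham libraries, which overlapped through banded library PS_9564. Its sham level was lower in the right than in the left ventricle (log2 difference -0.69, adjusted p = 0.0303, without overlap), and the banded right libraries lay within the range of the left ones.

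Lamc1 averaged 41.3 ± 2.91 FPKM in banded and 27.6 ± 2.60 FPKM in sham right ventricles (SD, n = 4 each), without overlap (log2 difference 0.57, adjusted p = 0.0203). This call was lost in 8 of 29 alternative fits, among them those without banded library PS_9552, PS_9553 or PS_9564 or without sham library 1, 2 or 3 of the right ventricle. Lamb2, which encodes the beta-2 chain, had 88.6, 98.7, 106 and 141 FPKM in banded and 119, 89.4, 104 and 129 FPKM in sham right ventricles. Those groups overlapped completely, and the log2 difference of -0.03 had a 95% interval of -0.40 to 0.33. In left ventricles Lamb2 had 141, 94.98, 133 and 98.4 FPKM in banded and 79.8, 92.8, 79.3 and 85.5 FPKM in sham libraries, just without overlap (log2 difference 0.45, adjusted p = 0.0934).

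The share of Lamb1 in the summed FPKM of both beta chains, again chosen after seeing the values, was 16.6 to 19.3% in banded right and 9.47 to 11.7% in sham right ventricles. In left ventricles it was 17.3 to 26.4% in banded and 17.4 to 22.2% in sham libraries. The sham right ventricle thus stood below the other 3 groups, and the left groups overlapped. Their printed promoter windows differ as described above, with 2 matches to GGGCGG in Lamb1 and none in Lamb2.

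Lama5, the alpha-5 chain, had 27.8, 29.6, 32.9 and 43.0 FPKM in banded and 48.0, 28.4, 36.3 and 36.7 FPKM in sham right ventricles. The groups overlapped (log2 difference -0.16, 95% interval -0.57 to 0.26), and in left ventricles, at 26.3, 19.1, 28.5 and 25.6 FPKM in banded and 32.7, 34.3, 30.4 and 21.3 FPKM in sham libraries, they overlapped as well. Lama2, the alpha chain of the laminin around muscle cells, averaged 10.8 ± 2.498 FPKM in banded and 8.07 ± 0.509 FPKM in sham right ventricles, and Lama4, typical of vessels, averaged 14.4 ± 2.58 FPKM in banded and 10.2 ± 2.49 FPKM in sham right ventricles (SD, n = 4 each). Neither was called. Among the 3 alpha chains Lama5 took 53.4 to 59.1% of the summed FPKM in banded right against 60.5 to 72.6% in sham right ventricles, without overlap, a share chosen after the values were seen. In left ventricles it took 33.7 to 55.1% in banded and 46.4 to 62.5% in sham libraries, which overlapped.

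Nidogens link laminin to type IV collagen. Nid1 had a log2 difference of 0.56 in the right ventricle that passed as deposited (adjusted p = 0.0278) and narrowly failed rescaled (adjusted p = 0.0561), and Nid2 one of 0.45 (adjusted p = 0.0963). In both genes every banded right library was above every sham right library. Agrn (agrin, a heparan sulfate proteoglycan that binds dystroglycan) and Hspg2 (perlecan, the large heparan sulfate proteoglycan of basement membranes) differed by 0.41 and 0.18 on the right side and by -0.22 and -0.25 on the left, none of them called on both scales. Hspg2 was the most abundant basement membrane transcript per length in the banded right ventricle, at 127 ± 23.7 FPKM against 111 ± 14.3 FPKM in sham right ventricles (SD, n = 4 each).

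**Figure D4:**
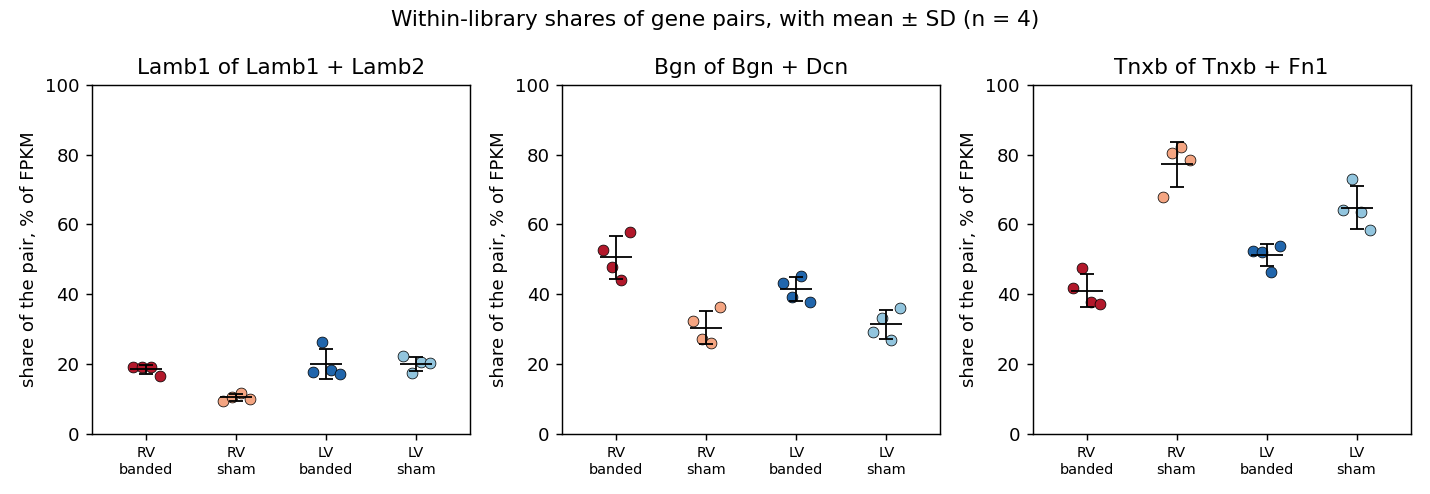
Points give, per library, the percentage of the summed FPKM of a gene pair that came from the first gene, with the mean and SD of the 4 libraries of a group, in the order banded right, sham right, banded left and sham left. The share of Lamb1 lies at 16.6 to 19.3% in banded and 9.47 to 11.7% in sham right ventricles. The share of Bgn is higher in banded than in sham groups of both ventricles, and that of Tnxb is lower in both. Tnxb itself was not called in the left ventricle.

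Among the other 7 glycoproteins, Mgp, Sparcl1 and Smoc2 rose in the banded right ventricle and Tnxb fell. Mgp encodes matrix Gla protein, an inhibitor of calcification, and was the most abundant of the 35 transcripts per length. It had 1099.7, 799, 1375 and 596 FPKM in banded right against 473, 259.7, 409 and 406 FPKM in sham right ventricles. The lowest banded library was above the highest sham library (log2 difference 1.28 ± 0.29, adjusted p = 0.00756). Left ventricular Mgp was at 786, 1401, 1211 and 637 FPKM in banded and 368, 210.1, 225 and 269.95 FPKM in sham libraries, also without overlap. The left log2 difference, 1.87 ± 0.29 (adjusted p = 0.00133), was the largest there, and the right difference minus the left one was -0.59 with a 95% interval of -1.45 to 0.28.

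Sparcl1 (hevin) is a secreted relative of osteonectin. It had 92.4, 109, 177 and 146 FPKM in banded right against 59.5, 60.8, 47.3 and 51.7 FPKM in sham right ventricles, and the groups did not overlap (log2 difference 1.21, adjusted p = 0.00243). In left ventricles it had 147, 171, 194 and 94.9 FPKM in banded and 71.0, 52.6, 64.3 and 78.6 FPKM in sham libraries, again separate (log2 difference 1.14, adjusted p = 0.00408). Ecm1 (extracellular matrix protein 1) was called in the left ventricle and not in the right. It had 53.6, 38.5, 43.5 and 40.7 FPKM in banded right and 27.2, 22.7, 28.2 and 36.8 FPKM in sham right ventricles, with no overlap but an adjusted p of 0.053 (log2 difference 0.61). In left ventricles Ecm1 had 43.6, 52.8, 63.6 and 35.7 FPKM in banded and 21.8, 16.1, 17.8 and 28.7 FPKM in sham libraries (log2 difference 1.18, adjusted p = 0.00262). Its right and left differences did not themselves differ by test (right minus left -0.56, adjusted p = 0.339).

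Tnxb encodes tenascin-X, a glycoprotein that bridges collagen fibrils. It had 13.6, 15.2, 14.6 and 13.3 FPKM in banded right against 20.9, 23.5, 27.4 and 20.7 FPKM in sham right ventricles. Every banded library was below every sham library (log2 difference -0.66 ± 0.17, adjusted p = 0.0164). Left ventricular Tnxb had 16.5, 15.8, 16.6 and 11.7 FPKM in banded and 17.4, 20.2, 13.7 and 12.3 FPKM in sham libraries, which overlapped (log2 difference -0.05, adjusted p = 0.864). The fall kept its sign under all scalings tried, but it was not called with TPM scaling (-0.19, adjusted p = 0.518) or in the libraries with Rn45s above 0 (-0.64, adjusted p = 0.182). As a share of Tnxb plus Fn1 within a library, Tnxb made up 37.2 to 47.4% in banded and 67.7 to 82.2% in sham right ventricles, and 46.5 to 53.8% in banded and 58.3 to 73.1% in sham left ventricles, a pair chosen after the values were seen.

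Smoc2, a calcium-binding matricellular protein, averaged 20.6 ± 3.04 FPKM in banded and 12.4 ± 1.27 FPKM in sham right ventricles (SD, n = 4 each, log2 difference 0.68, adjusted p = 0.0185). Its call was lost in 9 of 29 alternative fits, including those without banded library PS_9552, PS_9553 or PS_9561 or sham library 3 or 4 of the right ventricle. Ecm2 and Matn2 (matrilin-2, a filament-forming adaptor) had right differences of 0.77 and 0.43 and left differences of 0.97 and 0.39, with overlapping groups in both ventricles and no call.

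No member was called for a banding difference that itself differed between the ventricles, where 3.98% of all genes were. At so low a share the absence of a call says little about the members. At an unadjusted limma p under 0.05 there were 3 members, Fn1 with a larger difference in the right ventricle (right minus left 0.79) and Efemp2 and Tnxb with a lower one (-0.74 and -0.61), beside 18.2% of all genes. Fn1, Lamb1 and Nid1 passed on the rescaled values alone. Across the 35 genes the right and left differences had a Pearson r of 0.72 and a Spearman rho of 0.73, given as a description over genes whose values share libraries and scaling within a ventricle. The right difference was the larger in 22 genes, although the median right minus left difference was 0.08 as deposited and 0.28 rescaled, beside -0.07 and 0.11 over all genes.

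**Figure D5:**
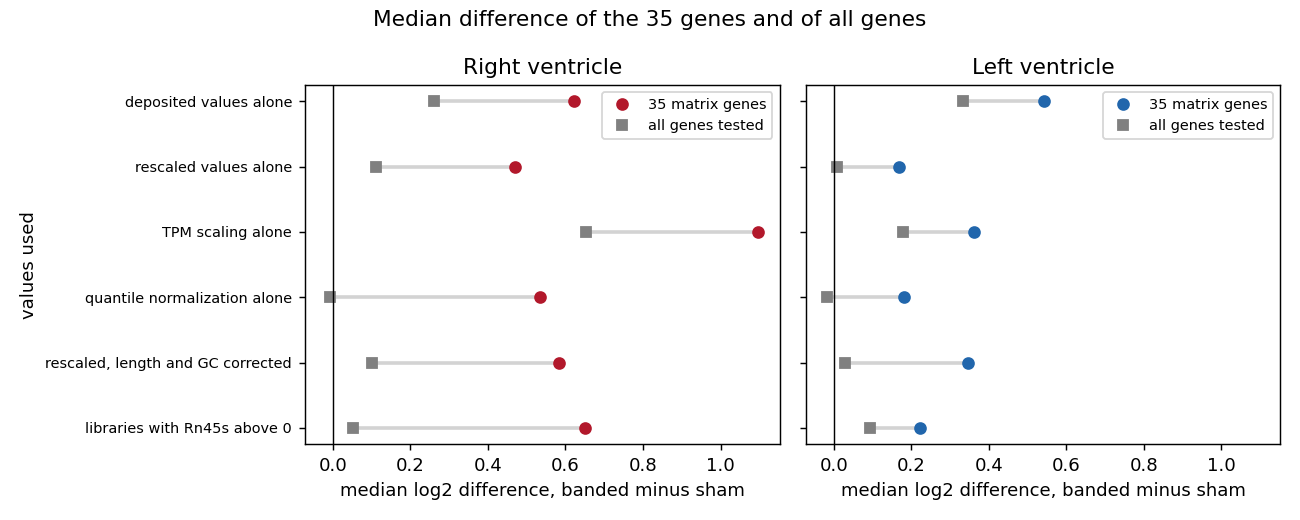
Points show the median log2 difference, banded minus sham, of the 35 genes (circles) and of all genes tested (squares) under 6 treatments of the values, for the right and the left ventricle. The circle lies to the right of the square in every row, while TPM scaling moves the right ventricular medians up, to 1.10 for the 35 genes, and rescaling moves the left median to 0.17. TPM scaling divides by a library's summed FPKM, of which the single entry Mir6236 made up 21.3 to 59.7%.

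Without banding, the right and left ventricles differed in few of these genes. Eln was higher in the sham right ventricle, at 19.9 to 27.6 FPKM against 10.7 to 14.8 FPKM in the sham left ventricle (log2 difference 0.89, adjusted p = 0.0318), and Lamb1 and Smoc2 were lower there, Smoc2 at 11.1 to 14.1 FPKM against 16.3 to 25.7 FPKM (log2 difference -0.72, adjusted p = 0.0373). Among all genes 2.55% were higher and 1.33% lower. All 3 calls were lost without sham left library 1, 3 or 4, and 1 or 2 of them without any single sham right library, without sham left library 2 or without banded left library PS_9561. In banded mice no member was called between the right and the left ventricle. The share of all genes called, 1.57%, is so low that this says little about the members. At an unadjusted limma p under 0.05, 6 members were higher and 3 lower, beside 15.4% of all genes in either direction. Fmod, at 3.17 to 5.48 FPKM in banded right and 0.104 to 2.06 FPKM in banded left ventricles, had the largest of these differences (log2 1.48, adjusted p = 0.0577). It was called in 4 of 28 alternative fits, and Agrn in 6 of 29.

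Genes near the 35 in the same pathways, from 6 lists, were read in the same fit. Of 10 other elastic fibre and microfibril genes tested, 4 were called higher after banding in the right chamber and none lower. Mfap4, a microfibril-associated protein, had 56.5, 33.8, 51.0 and 23.7 FPKM in banded right against 4.51, 4.91, 5.34 and 0.707 FPKM in sham right ventricles (log2 difference 3.21, adjusted p = 0.000488), a larger difference than that of any of the 35. Adamtsl2, which binds fibrillin and latent TGF-beta binding protein, and Mmrn1 (multimerin 1) rose by 1.64 and 1.05. Of the 4 calls, that of Mmrn1 gives no support, since Mmrn1 passed the filter through banded libraries alone. It had 0.904 to 1.97 FPKM in banded and 0 to 0.298 FPKM in sham right ventricles. Its call was lost with quantile normalization (limma adjusted p = 0.192). Of 9 other glycoproteins tested 3 rose, Srpx2, Svep1 and Igfbp7, by 1.29, 1.16 and 1.15, and none fell.

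Of 17 other proteoglycans and hyaluronan genes, 3 rose and 2 fell. Prg4 (lubricin) and Podn (podocan) rose by 1.68 and 1.15, whereas Gpc3, a glypican anchored in the cell membrane, had 1.02, 0.973, 0.834 and 0.508 FPKM in banded right against 4.37, 3.65, 6.68 and 1.61 FPKM in sham right ventricles (log2 difference -1.38, adjusted p = 0.00371). Of 13 other basement membrane genes none rose and 1 fell, the laminin chain Lamb3 (-0.96, adjusted p = 0.0159). Among 9 receptors of laminin, agrin and hyaluronan, 2 rose and 3 fell. Cd44, the hyaluronan receptor, rose by 1.79, and Sgca (alpha-sarcoglycan of the dystrophin complex) and Lrp4 (the agrin receptor at the neuromuscular junction) fell by 0.79 and 1.02. Of 24 genes that build glycosaminoglycan chains 2 rose (Chsy1 and Extl2) and 1 fell (Chst14). These 3 calls were lost in 7 of 28 alternative fits for Chsy1, 16 of 28 for Extl2 and 7 of 29 for Chst14, among them some that left out a single library. In the left ventricle the only call over all 6 lists was among the other glycoproteins, where Vwf (von Willebrand factor, also counted among the endothelial markers) rose. Over all genes, 10.5% rose and 4.93% fell with banding in the right chamber, and 2.44% rose and 0.298% fell in the left.

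In bulk tissue, fewer cells of a type and less RNA per cell cannot be told apart. The 8 fibroblast markers moved in both directions. In the banded right ventricle Pi16 and Ddr2 rose, Scara5, Dpep1 and Htra3 fell, and the 8 summed to 556 to 850 FPKM in banded against 772 to 1029 FPKM in sham right ventricles. In left ventricles they summed to 757 to 1050.5 FPKM in banded and 457 to 612 FPKM in sham libraries, without overlap. Gsn alone made up most of these fibroblast sums. It had 438 to 692 FPKM in banded and 601 to 873 FPKM in sham right ventricles. In left ventricles Gsn had 620 to 867 FPKM in banded and 372 to 492 FPKM in sham libraries. Mural cell markers summed to 267 to 362 FPKM in banded and 208 to 229.8 FPKM in sham right ventricles, endothelial markers to 234 to 324 FPKM in banded and 171 to 214 FPKM in sham, and macrophage markers to 163 to 286 FPKM in banded and 121 to 174 FPKM in sham right ventricles. In left ventricles the mural markers summed to 212 to 376 FPKM in banded and 198 to 253 FPKM in sham, the endothelial markers to 214 to 364 FPKM in banded and 176 to 227 FPKM in sham, and the macrophage markers to 207 to 349.6 FPKM in banded and 88.96 to 153 FPKM in sham libraries. Only the macrophage sums of these 3 did not overlap in left ventricles. The part of cell numbers in the matrix differences was not tested.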

How the data were processed

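The authors deposited FPKM for each gene and library. The submitters' processing notes name the build mm9 and the tools STAR 2.5.3a, Cufflinks 2.2.1, Cuffdiff, FastQC 0.11.5 and R 3.3.1. Whether counting used strand is not given in the sources used here.

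Values were analysed as log2(FPKM + 1), which understates the change of low genes. A minimum of 1 FPKM in any 4 of the 16 libraries left 12100 genes. These entered a single model of the 4 groups in limma 3.58.1 under R 4.3.3, with a trended prior and Benjamini-Hochberg adjustment over all of them. A call needed an adjusted p under 0.05 in the same direction as deposited and after division by a scale factor, taken over 8211 genes as each library's median ratio to their geometric means. Printed differences and p-values are those of the deposited values unless stated. Replicates are separately labelled libraries, not stated to be separate mice, so p-values measure only the spread between them, which may be technical.

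Same-numbered right and left libraries had correlated deviations above 0.1 in 1 of 8 pairs, so the numbers served as names only. Fragments were estimated from the step of FPKM times transcript length over 3927 genes with an assumed length of 200 nt. The counting precision is therefore approximate.

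Values per library are given for members called in the left ventricle, the 12 largest and 3 smallest right ventricular differences, every member lower in the banded right ventricle and, added after seeing the values, Lamb1. From each pathway list up to 3 called genes by smallest p are named. Vwf was named after its value was seen. The members and lists were chosen with earlier results of these data known. Of 205 list symbols 204 were in the table. The fits were tested on simulated data. The authors' table of group values was not used. Alternatives were other pseudocounts and filters, TPM scaling, quantile normalization, a length and GC correction, a robust prior, single comparisons, a replicate block, libraries with Rn45s above 0 and omission of each library.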

Additional observations from a re-analysis of the deposited data

Results flagged for a closer look

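Of 204 groups of 4 libraries examined over 51 genes, 13 had a library far from the other 3. By chance about 1 in 20 groups would. In members these were right ventricular sham library 1 for Fn1 (9.93 FPKM, others 5.64 to 5.91), sham library 3 for Aspn (4.92 FPKM, others 0.931 to 1.03) and sham library 4 for Prelp (8.66 FPKM, others 16.2 to 17.2). In the left ventricle, banded library PS_9564 was low for Fbln2 (31.0 FPKM, others 60.1 to 64.5), Lama4 (10.4 FPKM, others 19.1 to 20.1) and Tnxb (11.7 FPKM, others 15.8 to 16.6). It is the only banded left library with Rn45s above 0, with a scale factor of 0.976 against 1.23 to 1.28 in the others. After rescaling Tnxb had 12.01 there and 12.8 to 12.9 in the others, Fbln2 31.8 and 46.9 to 50.2, and Lama4 10.7 and 14.9 to 16.3. Banded library PS_9561 was high for Hspg2 (110.1 FPKM, others 79.4 to 82.9) and Agrn (25.8 FPKM, others 18.6 at most), and sham library 2 was low for Efemp1 (1.78 FPKM, others 5.06 to 5.41).

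Among pathway genes, right ventricular sham library 4 was low for Mfap4 (0.707 FPKM, others 4.51 to 5.34) and high for Srpx2 (1.69 FPKM, others 0.851 to 0.954). Left banded library PS_9561 was high for Mmrn1 (2.18 FPKM, others 0.661 to 0.739), and left sham library 4 was high for Igfbp7 (150.1 FPKM, others 104 to 110.6).

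The banding difference itself differed between ventricles in 4 named pathway genes, each lower in the right than in the left ventricle (right minus left, log2, limma). The values were -1.31 for Sgca (adjusted p = 0.00101), -1.65 for Gpc3 (adjusted p = 0.0164), -1.44 for Lamb3 (adjusted p = 0.0212) and -1.34 for Chst14 (adjusted p = 0.0361), where 3.98% of all genes differed in either direction. These 4 were among the genes named for the smallest p in the right ventricle. The call was lost in 2 of 28 alternative fits for Sgca, 12 of 27 for Gpc3, 5 of 28 for Lamb3 and 17 of 28 for Chst14, TPM scaling among them for each.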

How the results depend on the processing

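No called value changed sign under any alternative. All 12 rises and 2 falls of the right and all 6 rises of the left ventricle kept their sign under the 6 treatments of scale. With TPM scaling the right ventricle had 28 higher and 1 lower call (median 1.10; over all genes 47.0% higher), the left 2 higher, the difference between ventricles 7 higher (median 0.74), and sham right against left 0 higher and 11 lower (median -0.57; over all genes 24.7% lower). TPM scaling divided each library by its summed FPKM, of which the single entry Mir6236 made up 21.3 to 59.7%. Those values therefore depended strongly on 1 entry. On the deposited values alone the left had 14 higher calls (14.3% of all genes). On rescaled values alone the left had 1 lower call (Hspg2; median 0.17), the difference between ventricles 3 higher, sham right against left 4 lower and banded right against left 1 higher. Quantile normalization gave 1 lower call in the left (Hspg2; median 0.18), 3 higher for the difference (median 0.35), 4 lower between sham ventricles and 4 higher between banded ones (median 0.14). Libraries with Rn45s above 0 gave 0 lower calls in the right, 0 higher in the left (median 0.22, with 1 banded left library, assumed to vary like the others, and 0 of 11416 genes called), 1 lower between sham ventricles, and medians of 0.47 for the difference and 0.34 between banded ventricles. The length and GC correction left 0 higher calls between sham ventricles. A filter at 5 FPKM gave 1 higher call between banded ventricles. Fitting each comparison on its own libraries gave 0 lower calls between sham ventricles and 2 higher and 1 lower between banded ones. The replicate block, by library number, left 1 lower call between sham ventricles (without Smoc2) and changed no other count.

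Omission of each library gave 10 to 13 higher and always 2 lower calls in the right (median 0.57 to 0.72), and 1 to 8 higher and always 0 lower in the left (median 0.49 to 0.68). It gave 0 calls throughout in either direction for the difference (median -0.07 to 0.16), 0 to 1 higher and 0 to 2 lower between sham ventricles (median -0.17 to -0.02), and 0 to 2 higher and always 0 lower between banded ones (median -0.23 to 0.01). The cause of these shifts was not tested. Depth limits the low genes most in the sham right ventricle.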
